A study of Mus musculus with 4 samples.

Results

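In the proximal tissue of the mouse lower incisor, a small set of cells in a macrophage gate had counted RNA of the mannose receptor gene Mrc1. No RNA of the fractalkine receptor gene Cx3cr1 was counted in them. There were 65 such cells among 1353 macrophage-gate cells, 11310 cells kept after quality filters and 20502 deposited barcodes. A barcode was kept when at least 1000 genes were detected, at most 10% of its UMIs (counted RNA molecules) were mitochondrial and at most 3% came from the Hba- and Hbb- hemoglobin genes. The macrophage gate asked for at least 10 UMIs of the complement genes C1qa, C1qb and C1qc together, for a UMI of Csf1r, Adgre1 or Fcgr1, and for no UMI of Epcam or Pecam1. Within that gate, the 65 members were selected on having at least 1 UMI of Mrc1 and 0 UMIs of Cx3cr1. The members were thus chosen by the measured counts of 10 genes, whose levels are given only as a description.

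The study compared wild-type (WT) mice with Din-KO mice at postnatal day 15. The Din-KO allele lacks exon 2 of Din and carries a LacZ reporter. It is a constitutive allele and is not restricted to a cell type. Droplet-based single-cell RNA sequencing gave 4 libraries, with 2 libraries per genotype; the number and sex of the mice behind each library are not stated in the sources used here. WT replicate 1 held 6613 barcodes and 50423655 UMIs, WT replicate 2 held 3257 and 32198098, Din-KO replicate 1 held 6958 and 54348039, and Din-KO replicate 2 held 3674 and 33076212. The library was the unit of replication in every comparison, since cells of 1 library share their source.

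Tissue macrophages engulf dying cells and debris and are found in most organs, dental pulp and periodontal tissue included. The mannose receptor takes up glycoproteins and is a familiar marker of scavenging macrophages, often together with Stab1, Lyve1, Folr2 and Cd163. Cx3cr1 receives the chemokine Cx3cl1 and is high in microglia and in several other resident macrophages, whereas Lyve1-high macrophages that lie along vessels carry little of it.

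The members were unevenly spread over the libraries. WT replicate 1 held 25, WT replicate 2 held 8, Din-KO replicate 1 held 30 and Din-KO replicate 2 held 2. No barcode was shared between members of different libraries. Across libraries, 44 barcodes occurred more than once, 11 of them among kept cells, and 1 member's barcode was present in another library. Within the gate, 1236 cells (91.4%) carried both genes, 37 (2.73%) carried Cx3cr1 without Mrc1 and 15 (1.11%) carried neither. The gate cells with Cx3cr1 (1273 cells) served as the comparison class throughout.

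The members made up 5.48% of the gate in WT replicate 1 (95% exact binomial interval 3.58 to 7.99), 7.21% in WT replicate 2 (3.16 to 13.7), 4.27% in Din-KO replicate 1 (2.90 to 6.04), with 2.38% in Din-KO replicate 2 (0.290 to 8.34). These intervals cover counting error only. The shares of the Din-KO libraries were below those of the WT libraries, with overlapping intervals. The mean share was 6.34% ± 1.22 (SD, n = 2) in WT and 3.33% ± 1.34 (SD, n = 2) in Din-KO, a difference of -3.02 percentage points. A two-sided exact permutation test gave p = 0.33, which is the smallest value that 2 libraries against 2 allow. With each cell thinned to 2000 UMIs, so that all cells had the same depth, the shares were 16.5%, 11.7%, 12.6% and 10.8% in the same order. The share rose in every library at this lower depth, so a count of 0 in Cx3cr1 depended in part on depth. The thinned shares of WT replicate 2 and Din-KO replicate 1 crossed, and the exact permutation test gave p = 0.667.

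**Figure D1:**
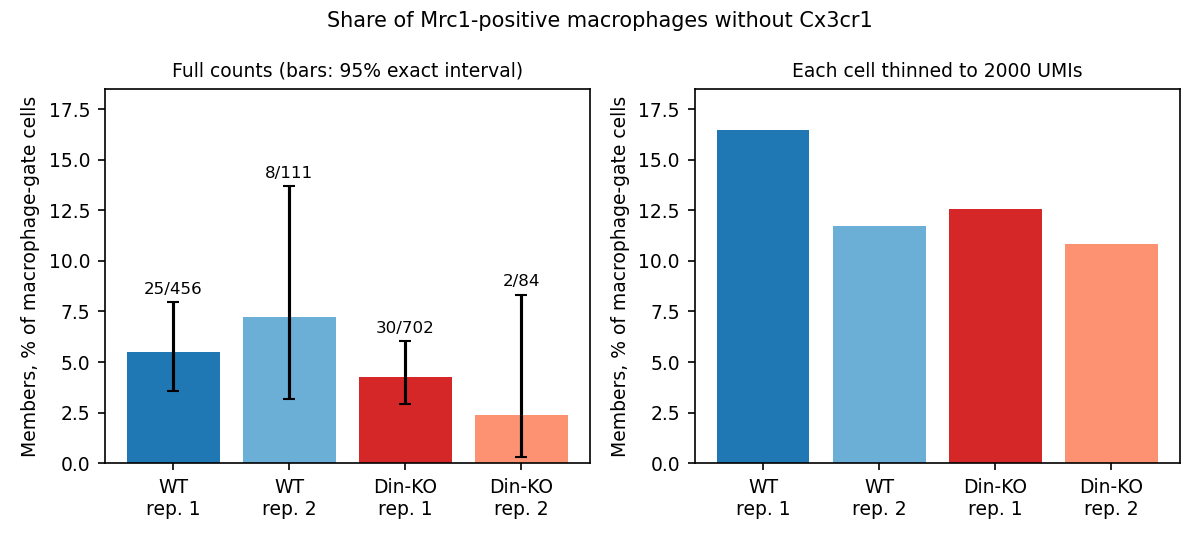
Share of Mrc1-positive macrophages without Cx3cr1 among macrophage-gate cells, in percent, for each of the 4 libraries. Left, full counts, with the number of cells over each bar and 95% exact binomial intervals; right, after each cell was thinned to 2000 UMIs. The 2 Din-KO bars are the lowest at left, at 4.27% and 2.38%, and no longer separate from WT at right.

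The 0 in Cx3cr1 was set against what each member's depth would have given. At the mean Cx3cr1 level of its library's gate cells, the median member would have held 10.8 UMIs in WT replicate 1, 4.88 in WT replicate 2, 10.2 in Din-KO replicate 1 and, in the other Din-KO library, 7.59. By this measure 1 of the 65 had an expected count under 3. It scales with all UMIs of a cell, however, and some members held little macrophage RNA. Scaled to the C1q UMIs of each member, 17 of the 65 had an expected count under 3. Members were shallower than the comparison class in all 4 libraries, however. Their median depth was 9602, 2778, 7290.5 and 5309.5 UMIs, against 10589, 9563, 10351 and 12335 (in the order WT replicate 1, WT replicate 2, Din-KO replicate 1, Din-KO replicate 2, used from here on).

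Near the edges of the rule, 9 members held a single UMI of Mrc1, with a median depth of 3864 UMIs. Just outside, 46 cells with Mrc1 held a single UMI of Cx3cr1, with a median depth of 6220. The 15 gate cells with neither gene had a median depth of 4000. For C1q, 9 members held 10 to 19 UMIs and 11 cells that met every other part of the rule held 5 to 9. Collagen-rich mesenchymal cells, which should lack Mrc1, held a UMI of it in 2.68% to 3.32% of cells per library at median depths of 10106 to 16933 UMIs. A UMI of free RNA could thus meet this part of the rule, and its share among the 9 members with a single UMI was not tested. At the other end, 24 members held 10 or more UMIs of Mrc1.

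The label was checked against its 4 markers. Lyz2, which encodes lysozyme, had a UMI in 65 of 65 members, Pf4 (platelet factor 4, a chemokine of resident macrophages) in 62, and Stab1 (stabilin 1, a scavenger receptor) in 54. In collagen-rich cells a UMI of Lyz2 was found in 15.5% to 26.4% of cells per library, of Pf4 in 5.45% to 8.42% and of Stab1 in 3.88% to 8.91%. The level of Pf4, as UMIs of the gene scaled to the UMIs of all genes summed over the members of a library (CPM), was 4440, 2413, 3114 and 1224, against 4258, 2112, 2565 and 1956 in the comparison class. Lyz2 stood at 5915, 7238, 9329 and 6874 CPM in members and at 4753, 6980, 7439 and 6007 in the comparison class, higher in members in every library on this scale. After TMM scaling, which evens out differences in composition, the fitted log2 difference of Lyz2 was -0.02 (SE 0.141), and that of Pf4 was -0.18 (SE 0.182). Mrc1 itself, used by the rule, was at 1875, 931, 1705 and 753 CPM in members and at 1856, 2038, 1656 and 1834 in Cx3cr1-positive cells. Members held less of it in the libraries of replicate number 2.

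RNA of other lineages was present, at levels that differed between the libraries. All 18 genes of a macrophage identity list (Apoe, Tyrobp, Maf and others) were detected in members. Of 10 T and NK cell genes only Il7r was detected, with 2 UMIs, and the neutrophil list was led by S100a9 with 7 UMIs. The B cell list, led by Ebf1 with 47 UMIs, summed to 141, 207, 136 and 4520 CPM, against 53.1 to 82.8 in the comparison class. Of the 65 members, 3 held 20 or more UMIs of that list. Among these was 1 of the 2 members of Din-KO replicate 2, with 48 UMIs that included 14 of Ebf1, 12 of Cd79a and 4 of Cd79b. Another, of Din-KO replicate 1, held 21 UMIs of the list, all of them Ebf1. It held 0 of Cd79a and Cd79b and 79 of the mesenchyme list described next, so it is not shown to hold B cell RNA. A mesenchyme list (collagens, Dcn, Postn and others) reached 20 or more UMIs in 6 members, 1 of them among the 3 above, with a median of only 14.5 C1q and 1.5 Mrc1 UMIs, so that 8 members in all held either list at that level. The mesenchyme list summed to 826, 1000, 1846 and 1224 CPM in members and to 2062, 2151, 1982 and 3856 in the comparison class, in which 123 cells held 20 or more of its UMIs. The epithelial list, led by the enamel gene Amelx, summed to 48.3, 1448, 150 and 753 CPM.

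**Figure D2:**
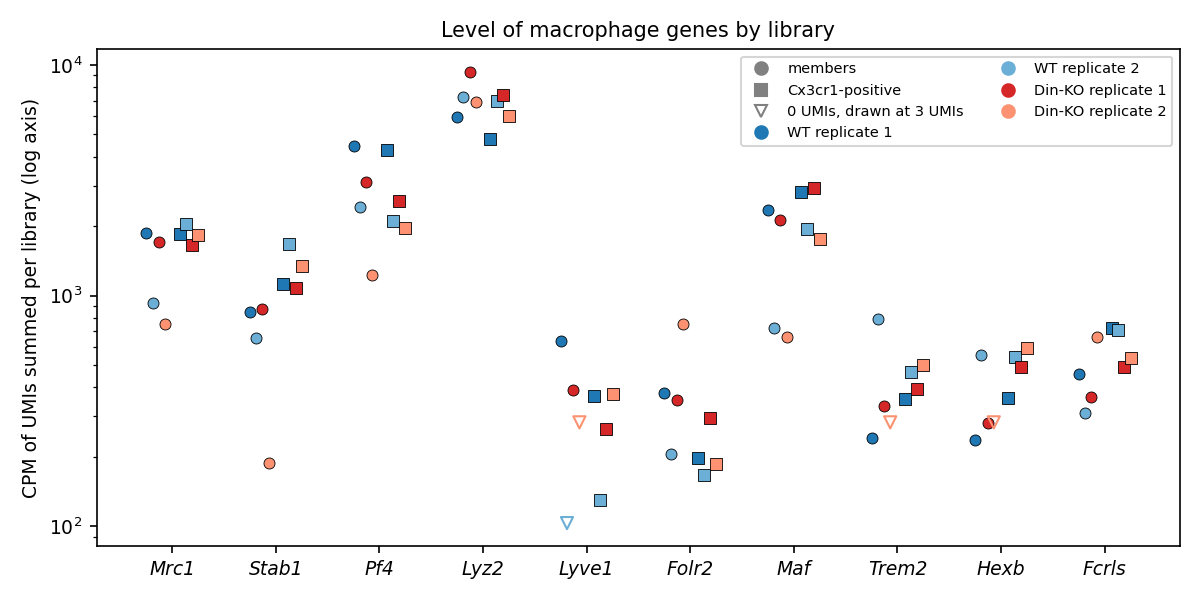
Level of 10 macrophage genes in each library, in CPM of summed UMIs on a log axis, for members (circles) and Cx3cr1-positive macrophages (squares). Open triangles mark 0 UMIs, drawn at the level of 3 UMIs. Stab1 and Maf lay lower in members in all 4 libraries, and Lyz2 higher in CPM but not in the fit with TMM scaling.

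A gap in the members' values of Malat1, a long non-coding RNA of the nucleus that is abundant in nearly all cells, split them into separate sets. In 27 members Malat1 made up at most 0.172% of UMIs, and in the other 38 at least 0.429%. The cut at 0.2% was placed in this gap after the values were seen. Below it lay 8 of 25 members in WT replicate 1 (32.0%), 7 of 8 in WT replicate 2 (87.5%), 11 of 30 in Din-KO replicate 1 (36.7%) and 1 of 2 in Din-KO replicate 2 (50%). In the comparison class the shares were 3.53%, 16.5%, 3.01% and 12.3%, lower in 4 of 4 libraries. Of all 11310 kept cells, 3.17% lay below the cut.

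An exact two-sided permutation test over the 4 library pairs gave p = 0.125, the smallest that 4 pairs allow, with a Benjamini-Hochberg adjusted p of 0.15 over 6 measures. Both classes held more such cells at low depth, so the shares were also taken in bins of depth that were set after the values were seen. Below 4000 UMIs, 20 of 21 members (95.2%) and 38 of 82 Cx3cr1-positive cells (46.3%) lay under the cut, at median depths of 3138 and 3102.5 UMIs. From 4000 to 8000 UMIs the counts were 6 of 15 members (40%) and 18 of 274 (6.57%), and from 8000 UMIs 1 of 29 (3.45%) and 6 of 917 (0.654%). Low-Malat1 members were shallow, with a median of 3304 UMIs, 40 C1q UMIs and 3 Mrc1 UMIs, against 9480.5, 124 and 15.5 in the others. None of the 27 held a UMI of Neat1 or Xist, both nuclear long non-coding RNAs, although 15 of them came from WT libraries, in which 18 of 18 members above the cut held Xist. Their share of ribosomal protein UMIs had a median of 20.1%, against 15.3% above the cut. Their macrophage genes were present: summed over libraries, Pf4 stood at 3931 CPM below the cut and 3581 above it, and Lyz2 at 7344 and 7608.

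**Figure D3:**
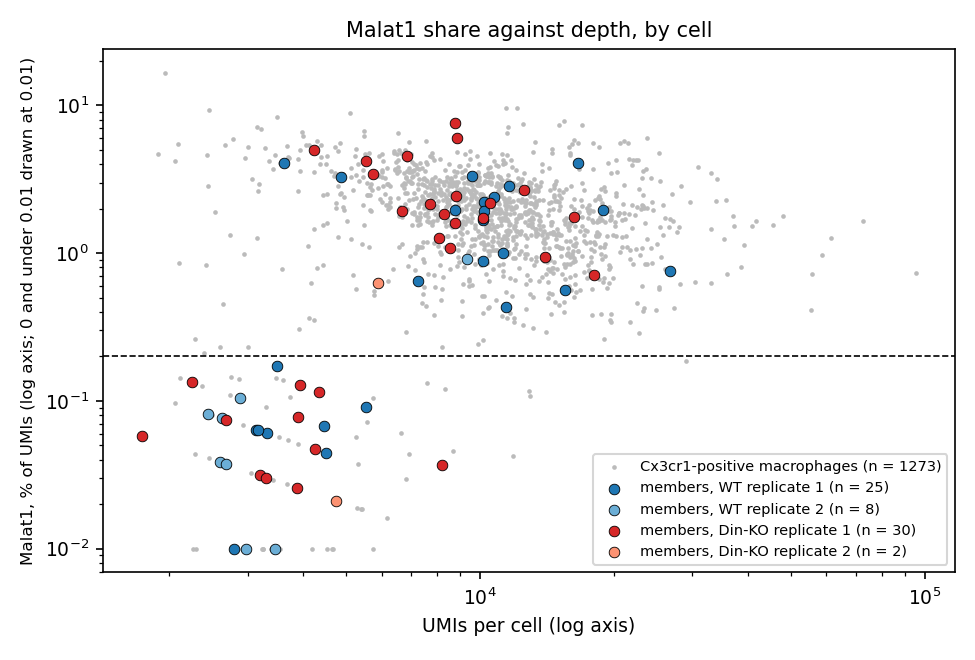
Malat1 as a percentage of UMIs against UMIs per cell, both on log axes, for 65 members (coloured by library) and 1273 Cx3cr1-positive macrophages (grey). The dashed line is the cut at 0.2%; 27 members lie below it, all with 8200 UMIs or fewer, and 38 above.

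With library as a block, members were compared with Cx3cr1-positive macrophages over 6912 genes, the 10 genes of the rule left out. The lowered genes included Stab1, the growth factor signalling genes Tgfbr1 and Pmepa1, and the pore-forming gene Mpeg1. The collagen genes Col1a1 and Col1a2 were called lower too, by 1.45 and 1.35 on the log2 scale, but without the cells of either class that held 20 or more UMIs of the mesenchyme list their log2 differences were 0.29 and 0.28. Of the 24 called genes, 19 were tested without those cells and 15 were called again, Stab1, Maf, Apoe, Tgfbr1, Pmepa1, Mpeg1 and Fabp5 among them, while Vim was not. The raised genes that moved one way in every library were Fabp5, a fatty acid binding protein, and Vim, which encodes vimentin. edgeR's quasi-likelihood test called 24 genes at a Benjamini-Hochberg adjusted p of 0.05 (0.347% of those tested), 9 higher (0.13%) and 15 lower (0.217%). Over all genes, 296 were higher (4.28%) and 950 lower (13.7%) in 4 of 4 libraries.

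Tgfbr1, which encodes the type I receptor of TGF-beta, was at 17.6, 103, 13.6 and 0 CPM in members and at 90.7, 148, 123 and 138 in the comparison class. It was lower in every library, with a UMI in 10 members, and the fitted log2 difference was -2.39 (SE 0.517, edgeR adjusted p = 0.00246). Pmepa1, a gene known to be induced by TGF-beta, was at 35.1, 0, 36.4 and 0 CPM against 127, 100, 176 and 214, a log2 difference of -2.27 (SE 0.470, edgeR adjusted p = 0.00105). All values of Pmepa1 in members lay below all of those in the comparison class. Tgfbr1 is also 1 of 15 tested genes of a microglia-type resident list, which holds further genes known from Cx3cr1-high macrophages. It was the called one of them. Of the 15, 0 had a positive log2 difference, against 2684 of all 6912 genes, and their median was -0.58 against -0.11. Only 3 of the 15 (20%) were lower in every library, against 13.7% of all genes. The macrophage identity list moved the same way, with 1 of 18 genes positive, a median of -0.44 and 27.8% lower in every library. The fall was thus not particular to the microglia-type list.

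Stab1 fell by 0.99 on the log2 scale (SE 0.242, edgeR adjusted p = 0.0161), with 848, 655, 873 and 188 CPM in members and 1120, 1677, 1084 and 1351 in the comparison class. The groups did not overlap, and Stab1 is also a marker named in the label. The direction depended on the comparison class: against the 37 gate cells with Cx3cr1 and no Mrc1, the log2 difference was 1.87 for Stab1, 1.49 for Maf and 0.48 for Apoe. Against the Cx3cr1-positive cells as a whole, Maf, a transcription factor of resident macrophages, fell by 0.93 (SE 0.204, edgeR adjusted p = 0.00282), from 2809, 1940, 2933 and 1767 CPM to 2354, 724, 2132 and 659. Mpeg1 fell by 1.38 (SE 0.350, edgeR adjusted p = 0.0246). Of the macrophage identity list, 3 of 18 tested genes were lower (Maf, Apoe and Mpeg1) and 0 higher. Apoe, the lipid carrier, was lower in 3 libraries and higher in Din-KO replicate 2 (40870 against 30156 CPM).

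Of 22 tested genes in a scavenging resident macrophage list, 2 were lower (Stab1 and Cd209g) and 0 higher, with a median log2 difference of -0.21. Cd209g, a C-type lectin, held 4 UMIs in 3 members. Lyve1, the hyaluronan receptor, was at 637, 0, 391 and 0 CPM in members and at 367, 130, 264 and 375 in the comparison class. It was thus the higher in both libraries of replicate number 1 and had no UMI in the others. The share of members with a UMI of Lyve1 was 68.0%, 0%, 53.3% and 0%, and 50.8%, 38.8%, 37.5% and 30.9% in the comparison class. A count of 0 among 8 and 2 members leaves upper exact limits of 36.9% and 84.2%. Collagen-rich cells held a UMI of Lyve1 in 0.216% to 0.727% of cells. With each cell thinned to 2000 UMIs, Lyve1 was seen in 40.0% and 37.9% of members in the libraries of replicate number 1, against 28.8% and 21.4%.

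Folr2, the folate receptor of macrophages, was at 378, 207, 355 and 753 CPM in members and at 198, 167, 296 and 187 in the comparison class, higher in each library. The value of Din-KO replicate 2 came from 8 UMIs, all in 1 of its 2 members. Folr2 did not pass the test. A UMI of it was found in 64%, 62.5%, 53.3% and 50% of members against 62.4%, 56.3%, 63.3% and 54.3%, so the Din-KO libraries went the other way. Thinned to 2000 UMIs, the shares were 56%, 50%, 31.0% and 50% against 26.9%, 21.4%, 33.9% and 25%. Cd163, the hemoglobin scavenger receptor, was found in 11 of 65 members (16.9%) and 28.6% of Cx3cr1-positive cells. Trem2, a lipid-sensing receptor, was found in 43 (66.2%) and 87.5%. Thinned to 2000 UMIs, Cd163 was found in 9.38% and 12.4% and Trem2 in 35.9% and 50.4%. For Trem2 the thinned shares by library were 28%, 62.5%, 37.9% and 0% of members against 49.3%, 49.5%, 49.8% and 62.5%, so that the order turned in WT replicate 2. Collagen-rich cells held a UMI of Trem2 in 0.949% to 2.43% and of Cd163 in at most 0.395% of cells per library. Of the MHC class II list, 0 of 6 tested genes were called, 5 were lower at an unadjusted p under 0.05, and the median log2 difference was -0.95. Over all 6912 genes, 264 were lower at that level. Of the 6 class II genes, 0 were lower in all 4 libraries. The list summed to 364, 138, 1273 and 1601 CPM in members and to 1189, 1219, 1480 and 892 in the comparison class. The order of these sums thus turned in Din-KO replicate 2. However, the sums in members leaned on single cells. In WT replicate 1, 1 cell held 60 UMIs of the list, in Din-KO replicate 1 another held 246, and in Din-KO replicate 2 another held 15. No other member held more than 6. The cells with 60 and 15 also held 26 and 48 UMIs of the B cell list. The part of B cell RNA in these sums was not tested. H2-Ab1 had a UMI in 3 of 65 members (4.62%), the same 3 cells, against 14.7% (3.13% against 8.03% when thinned). Ccr2, a receptor of recruited monocytes, had a UMI in 1 member.

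**Figure D4:**
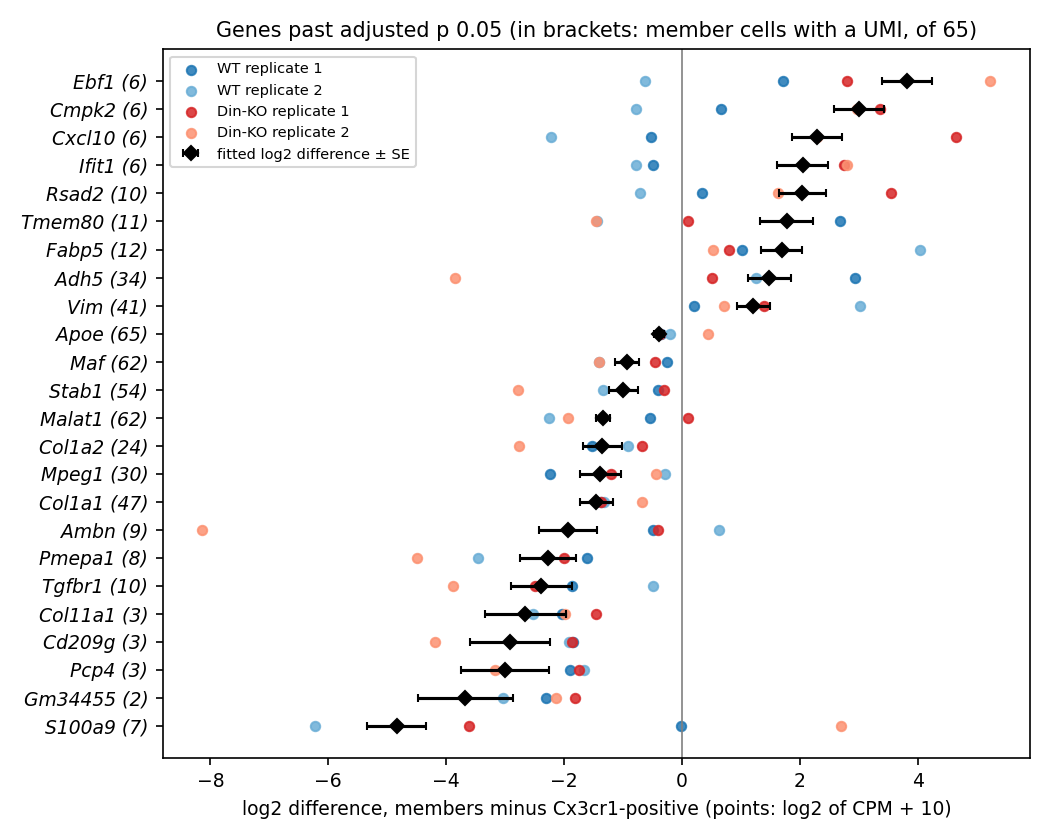
Log2 difference between members and Cx3cr1-positive macrophages for the 24 genes past an adjusted p of 0.05 (edgeR). Points are the 4 libraries, as log2 of CPM + 10; diamonds with bars are the fitted difference ± SE. Numbers in brackets are the member cells with a UMI, from 2 for Gm34455 to 65 for Apoe.

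Some called genes rested on few cells. Ebf1, a transcription factor of the B cell list, was higher by 3.82 on the log2 scale (edgeR adjusted p = 5.11e-16) with 9, 0, 24 and 14 UMIs, all in 6 members. Of the 24 in Din-KO replicate 1, 21 lay in 1 cell with 0 UMIs of Cd79a and Cd79b and 79 of the mesenchyme list. Fabp5 drew 84.2% of its member UMIs in WT replicate 1 and 95.7% of those in WT replicate 2 from 1 cell each, and Vim 93.3% of those in WT replicate 2. Adh5 and Tmem80 drew 75.1% and 77.8% of their member UMIs from 1 cell each. Gm34455 and Pcp4 had 2 and 3 UMIs in members in all. S100a9, a neutrophil gene, was at 8.78, 68.9, 9.09 and 94.2 CPM in members (7 UMIs in all) and at 8.92, 5880, 225 and 6.10 in the comparison class, so that its fall came from WT replicate 2 and Din-KO replicate 1. The fall of Malat1 (log2 difference -1.34, edgeR adjusted p = 6.18e-24) did not hold in Din-KO replicate 1, with 20308 CPM in members and 18978 in the comparison class. Of the 24 calls, DESeq2 kept Col1a1 and Ebf1. Without low-Malat1 cells in either class, 3 calls remained, Cmpk2, Ebf1 and Tgfbr1. Tgfbr1 then had a log2 difference of -3.24 and an edgeR adjusted p of 0.0278.

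The members above the Malat1 cut that held fewer than 20 UMIs of each of the mesenchyme, B cell and cell cycle lists numbered 26. There were 11 in WT replicate 1, 1 in WT replicate 2, 14 in Din-KO replicate 1 and none (0) in the other Din-KO library. They were singled out after their values were seen, so they are described, with no test, in the 2 libraries of replicate number 1. The comparison cells were Cx3cr1-positive macrophages held to the same limits on Malat1 and the 3 lists, 294 in WT replicate 1 and 523 in Din-KO replicate 1. The median Mrc1 count of the described members was 28 UMIs in WT replicate 1 (8 to 46) and 21.5 in Din-KO replicate 1 (3 to 54). Stab1 was at 1117 against 1318 CPM in WT replicate 1 and at 1258 against 1235 in Din-KO replicate 1, and Pf4 at 5713 against 4500 and at 4010 against 2650.

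Most genes of the scavenging resident macrophage list were higher in these 25 cells in both libraries. Lyve1 was 2.17-fold higher in WT replicate 1 (790 against 365 CPM) and 1.91-fold in Din-KO replicate 1 (552 against 289), with a UMI in 11 of 11 and 9 of 14 cells. Folr2 was 2.36-fold and 1.51-fold higher. Fcna, a ficolin of the lectin complement pathway, was 2.50-fold and 1.55-fold higher. Cbr2, a carbonyl reductase, stood at 816 against 412 and at 479 against 340 CPM. F13a1, the A subunit of coagulation factor XIII, was 1.72-fold and 1.35-fold higher. Lyz2 was 1.51-fold and 1.44-fold higher. Of 21 scavenging resident list genes with a mean of at least 50 CPM, 15 (71.4%) were higher in both libraries and 1 was lower. Over 2913 genes at that level, 28.9% were higher and 23.9% lower in both. Against comparison cells limited on Malat1 alone, 16 of the list were higher and 1 lower, beside 29.4% higher and 26.6% lower over 2943 genes. A list of scavenger and endocytic receptors did not share this. Of its 9 genes, 1 (11.1%) was higher and 2 (22.2%) were lower in both libraries, against cells held to all limits. Against cells limited on Malat1 alone, 2 were higher and 1 was lower.

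The monocyte chemoattractant Ccl2 was 2.94-fold and 3.28-fold higher (1426 against 485 and 1340 against 408 CPM), with no more than 24.7% of its UMIs in 1 cell. The microglia-type list went the other way, with 0 of 11 genes higher and 7 (63.6%) lower in both. Tgfbr1 held 2 UMIs in WT replicate 1 and 1 in Din-KO replicate 1, or 17.2 against 107 and 8.12 against 136 CPM. Pmepa1 held 0 and 1 UMIs, against 149 and 199 CPM in the comparison cells, and Olfml3 held 1 and 3, or 8.59 against 41.8 and 24.4 against 71.9 CPM. Maf stood at 2929 against 3399 and at 2947 against 3302 CPM, and Apoe at 27189 against 32961 and at 36679 against 41216, both lower in the described members. When the comparison cells were limited on Malat1 alone, this order turned, with Maf at 2827 and 2945 CPM and Apoe at 24663 and 34141 in them. Cd74, the invariant chain of MHC class II, was at 51.5 and 982 CPM in the described members, and 95% of its 121 UMIs in Din-KO replicate 1 lay in 1 cell.

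Between genotypes, 1 gene passed the test, and genes known to be induced by interferon, the antiviral cytokines, were next in order. The interferon-induced chemokine gene Cxcl10 was the called gene of 2088 tested with edgeR's quasi-likelihood test (0.0479% in either direction, 0.0479% higher and 0.0% lower). At an unadjusted p under 0.05, 49 genes were higher and 13 lower. Cxcl10 held 2, 0, 391 and 10 UMIs, or 8.78, 0, 1778 and 942 CPM. Its log2 fold change was 7.42 (SE 0.891, edgeR adjusted p = 0.0457). With 2 and 0 UMIs in the WT libraries, Cxcl10 passed the filter on low counts through the Din-KO libraries. That fixed its sign, and the fitted size is no exact fold. Of the 391 UMIs in Din-KO replicate 1, 389 lay in 1 cell, so the call rests on that cell and on 1 cell of Din-KO replicate 2. Without members that held 20 or more UMIs of the mesenchyme list, edgeR called 0 of 1634 genes, with 53 at an unadjusted p under 0.05, and Cxcl10 had an adjusted p of 0.0508.

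The genes next in order did not pass the threshold with edgeR, while DESeq2 called Rsad2 and Ifit1 beside Cxcl10. Rsad2, which encodes the antiviral protein viperin, held 6, 0, 265 and 11 UMIs (log2 fold change 5.68, edgeR adjusted p = 0.0712). Ifit1, which binds viral RNA, held 2, 0, 84 and 5 (5.61, edgeR adjusted p = 0.0897), and Cmpk2, a mitochondrial nucleotide kinase, held 3, 0, 70 and 6 (5.02, edgeR adjusted p = 0.141). Ifit3b held 0, 0, 35 and 2 (7.36, edgeR adjusted p = 0.187). With 0 UMIs in WT, that fitted size depends on the prior count and is no bound. Rsad2, Ifit1 and Cmpk2 also held under 10 UMIs in the WT libraries together and passed the filter on low counts through Din-KO. The same Din-KO replicate 1 cell held 257 of the Rsad2 UMIs, 76 of Ifit1 and 66 of Cmpk2. All of the Din-KO replicate 2 UMIs of Cxcl10, Rsad2, Ifit1 and Cmpk2 came from 1 cell, the same that held 48 UMIs of the B cell list.

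Interferon-induced genes often carry the interferon-stimulated response element, to which the factors of the IRF and STAT families bind. The core letters GAAANNGAAA, searched on both strands (TTTCNNTTTC on the other) in RefSeq promoters of GRCm38.p6 (250 bases before to 50 after the start of transcription), were present in 3.44% of 32851 promoters. Counted by gene, 3.99% of all genes, 5.48% of the 1678 tested genes with a promoter and 23 of 43 (53.5%) of the interferon response list held a match. Of the 5 genes above, 4 had a match and Cmpk2 had none, which says only that these letters are not in that window. The windows below are shown because they belong to the genes on which the genotype comparison turns; they run 5′ to 3′ on the strand of the gene, with the matched letters in capitals.
Cxcl10: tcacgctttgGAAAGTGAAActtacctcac
Rsad2: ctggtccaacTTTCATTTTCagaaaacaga
Ifit1: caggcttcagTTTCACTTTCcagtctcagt
Ifit3b: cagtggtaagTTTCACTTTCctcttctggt

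The Cxcl10 window is chr5:92349083-92349112 on the minus strand, and its match begins 213 bases before the start of transcription. The Rsad2 window is chr12:26456553-26456582 on the minus strand, 120 bases before the start. The Ifit1 window is chr19:34640775-34640804 and the Ifit3b window chr19:34607759-34607788, both on the plus strand, 104 and 188 bases before the start, and each of these promoters held 2 matches. A match is a description of the sequence and says nothing on binding in these cells.

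Over the interferon response list, 37 of 57 genes were tested. edgeR called none (0), and 21 were higher at an unadjusted p under 0.05, while DESeq2 called Rsad2 and Ifit1. The log2 fold change was positive in 37 of 37, but 14 of them held under 10 UMIs in the WT libraries together and passed the filter on low counts through the Din-KO libraries, which fixed their sign. Without that filter, 51 of the 55 listed genes in the files had a higher summed level in Din-KO members and 4 a lower one. Over all genes with a UMI in members, 6185 were higher and 6240 lower by this measure. In 36 of the 55 every Din-KO value exceeded every WT value and in 0 the reverse held, against 681 and 1683 of 12425 genes with a UMI in members. As a share of the members' summed UMIs, the list made up 0.532% and 0.186% in WT and 1.33% and 1.56% in Din-KO. Without the cell with most interferon UMIs in each library, it made up 0.471%, 0.130%, 0.821% and 0.845%, so that the order of these 4 sums held while the gap narrowed. The median cell held 0.394%, 0.110%, 0.691% and 1.49%.

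In Cx3cr1-positive macrophages the median was 0.371%, 0.243%, 0.872% and 0.527%, again higher in Din-KO than in WT, with Din-KO replicate 1 rather than replicate 2 at the top. When the genotype change was tested for a difference between the classes, 0 of 55 interferon genes were called by edgeR and 2 were higher in members at an unadjusted p under 0.05, as were 137 of all 7999 genes. The median difference over the list was 0.65 on the log2 scale, against -0.06 over all genes tested. On simulated data this fit recovered 0% of 4-fold changes with edgeR, so it could call little. The cell that led Din-KO replicate 1 held 18008 UMIs, 1263 of them (7.01%) from the list, with 213 C1q, 21 Mrc1, 76 Pf4 and 16 Lyve1 UMIs and Malat1 at 0.716%. Cells in which the list made up 3% or more numbered 0 of 33 members in WT and 2 of 32 in Din-KO. Among Cx3cr1-positive macrophages they numbered 0 of 528 and 10 of 745.

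**Figure D5:**
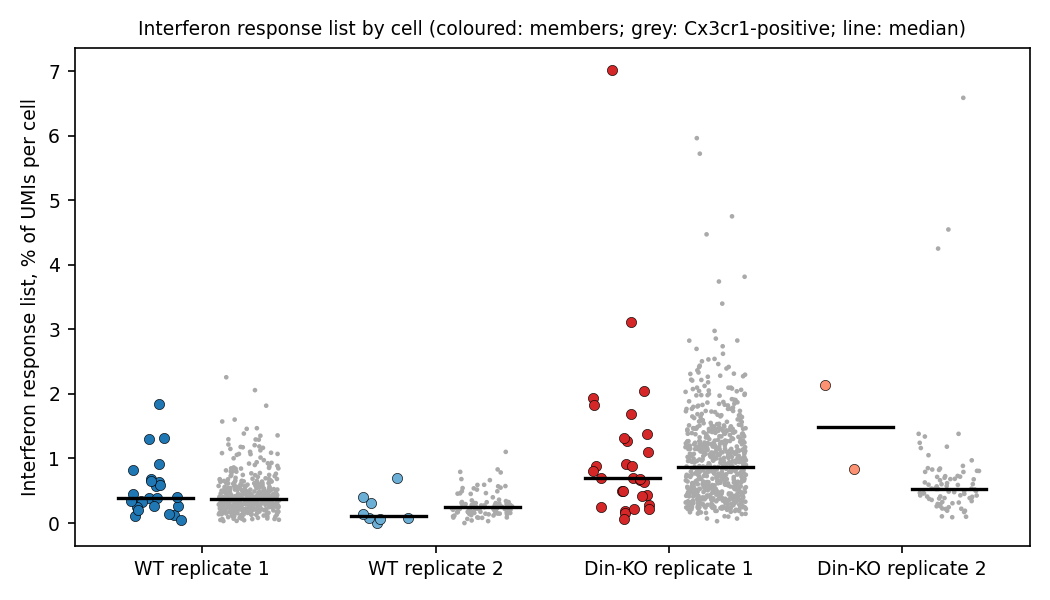
Interferon response list as a percentage of UMIs in each cell, by library, for members (coloured) and Cx3cr1-positive macrophages (grey); lines are medians. In both classes the Din-KO medians lie above the WT medians, and the highest member, at 7.01%, is a cell of Din-KO replicate 1.

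The genotypes also differed in genes that mark the sex of the animals. UMIs of the Y-linked genes Ddx3y, Eif2s3y, Kdm5d and Uty were found only in Din-KO libraries: among members, Ddx3y held 0, 0, 5 and 0, and among Cx3cr1-positive cells 0, 0, 241 and 76. Xist, expressed from the inactive X chromosome, was at 663, 655, 209 and 0 CPM in members and at 852, 1176, 442 and 551 in the comparison class. A UMI of Xist was found in 17, 1, 7 and 0 members and in 402, 87, 402 and 38 Cx3cr1-positive cells, so that Xist was present in cells of both genotypes and Y-linked RNA in Din-KO libraries alone. Among members with at least 3 UMIs of Xist and none of these Y-linked genes (15, 1, 5 and 0 cells), edgeR called 0 of 1010 genes between genotypes, with 11 at an unadjusted p under 0.05. In that fit the Din-KO side was 1 library, assumed to vary like the WT libraries, so it could call little and Cxcl10 was not tested. Over all members, genotype and sex were thus in part confounded.

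Class I antigen presentation genes, which respond to interferon, lay on the same side. Of 8 tested, 0 were called, 8 had a positive log2 fold change, and in 6 every Din-KO value exceeded every WT value, with a median of 0.91. Over all 2088 genes, 979 had a positive log2 fold change, and 12% lay apart in this direction. H2-K1 had a log2 fold change of 2.11 and H2-D1 of 1.73.

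Cell cycle genes were mostly lower in Din-KO members by summed level, and none was called. Of 6 tested cell cycle genes, 0 were called and 0 had a positive log2 fold change, with a median of -1.46. In 5 of them the Din-KO values were below every WT value, against 20.4% of all genes tested. However, 3 of the 6 held under 10 UMIs in the Din-KO libraries together and passed the filter through WT, which fixed their sign. Without the filter, 37 of the 39 listed genes in the files had a lower summed level in Din-KO, against 6240 of 12425 genes with a UMI in members. In 21 of the 39 every Din-KO value lay below every WT value, against 1683 of the 12425. Few cells held much of this RNA. In WT replicate 1, the leading cells held 276, 122 and 94 UMIs of the list, and in WT replicate 2 they held 31 and 11. The leading cell of Din-KO replicate 1 held 69, and the members of Din-KO replicate 2 held 1 and 2. Whether the difference went beyond these cells was not tested. Top2a, the topoisomerase of dividing cells, held 59, 5, 6 and 0 UMIs (log2 fold change -3.00, edgeR adjusted p = 0.523). H2afz, a histone variant, was at 1085, 1172, 273 and 283 CPM, with a log2 fold change of -1.96 (edgeR adjusted p = 0.470). Its WT and Din-KO libraries did not overlap. Members with a UMI of Mki67 or Top2a made up 40.0%, 25%, 13.3% and 0%, against 26.1%, 16.5%, 20.8% and 13.6% of Cx3cr1-positive macrophages.

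No scavenging gene passed the test between genotypes. Of 19 tested genes of the scavenging resident list, 0 were called and 9 had a positive log2 fold change, with a median of -0.01. None passed an unadjusted p of 0.05. Of 7 tested scavenger and endocytic receptor genes, 0 were called, with a median of -0.39. In 4 of them (57.1%) every Din-KO value lay below every WT value, against 20.4% of all genes tested. Without the filter on low counts, 7 of the 12 with a UMI in members had a higher summed level in Din-KO and 5 a lower one. Selenop, a selenium transport protein secreted by macrophages, was at 3605, 4343, 2751 and 3390 CPM (log2 fold change -0.39, SE 0.322). Pf4 had a log2 fold change of -0.53 (SE 0.538) and Lyz2 of 0.34 (SE 0.337). Mrc1 was used by the rule, and its value of -0.06 is only a description. With 2 libraries per genotype, and 8 and 2 members in the smaller of them, a gene that was not called is not shown to be unchanged.

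Din itself held 7, 1, 3 and 0 UMIs in members, too few to compare, and 105, 16, 62 and 12 in Cx3cr1-positive macrophages (20.8, 14.3, 8.06 and 10.5 CPM). The deletion takes exon 2, and whether the counted tags lie outside the deleted part was not tested. These values are therefore not used as a check of the allele.

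The genotype change differed between members and Cx3cr1-positive macrophages in 2 of 7999 genes (0.025%), 1 higher (0.0125%) and 1 lower (0.0125%) in members. Fmod, which encodes the matrix protein fibromodulin, held 0, 0, 40 and 0 UMIs in members, in 5 cells of Din-KO replicate 1, and 303, 32, 325 and 7 in the comparison class. Amelx, which encodes the enamel protein amelogenin, held 6, 37, 25 and 8 UMIs in members and was at 21.2, 714, 91.4 and 18206 CPM in the comparison class. Neither is a macrophage gene. The mesenchyme list was highest in members of the library in which Fmod was found, and the epithelial list to 48.9, 847, 131 and 21668 CPM in the comparison class, highest where Amelx was. Without the cells that held 20 or more UMIs of the mesenchyme list, Fmod no longer passed the filter on low counts. The part of epithelial RNA in the result for Amelx was not tested.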

How the data were processed

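The authors deposited, for each library, UMI counts per gene and barcode with no normalization, made with Cell Ranger 6.0.2 on mm10/GRCm38 per the labels and the file headers. From these counts, cells were filtered with the limits the study's methods state (at least 1000 genes, at most 10% mitochondrial and 3% hemoglobin UMIs), and the gate was applied to raw counts. No doublet caller was run and free RNA was not removed. Members and gene lists were chosen with earlier results of these data known.

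UMIs were summed per library and class (members 227724, 29014, 219960 and 10619 UMIs) and fitted with edgeR 4.0.16 (TMM, filterByExpr, quasi-likelihood test, Benjamini-Hochberg over all genes tested at 0.05) in R 4.3.3, with DESeq2 1.42.0 as an alternative. Between genotypes, 2 libraries were compared with 2; between classes, the library was a block. Shares were compared with exact permutation tests. The fits were tested on simulated data with 4-fold and 16-fold changes. Between genotypes, edgeR recovered 6.5% and 67% of them, and between classes 91.5% and 100%. For the difference of the genotype change between classes it recovered 0% and 39%.

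Named genes were, per fit and direction, the 10 of largest log2 difference past the threshold with 1 sign in every library and a mean of at least 10 CPM, or, with under 5 such genes, the 5 of smallest p. Further called genes, the Malat1 cut and the 26 described members were chosen after their values were seen. The comparison cells of those 26 were held to the same limits after the values were seen. Alternatives changed the tool, scaling, low-count filter, depth, gate, comparison class and libraries. Nothing in the labels says that the libraries of a genotype came from separate litters, so p-values measure the spread between these libraries, which may be technical. Sums of few cells were the limit: 8 members in WT replicate 2 and 2 in Din-KO replicate 2.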

Additional observations from a re-analysis of the deposited data

Results flagged for a closer look

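The change between genotypes differed between the members and Cx3cr1-positive macrophages in 2 genes, by a test of the difference itself in edgeR with the library as a block. For Fmod the difference was 11.81 on the log2 scale (SE 2.27, edgeR adjusted p = 0.00167), with 0 UMIs in the members of 3 libraries, so that the fitted size depends on the prior count and is no bound. For Amelx it was -2.74 (SE 0.581, edgeR adjusted p = 0.0094), with 18206 CPM in the Cx3cr1-positive macrophages of Din-KO replicate 2. DESeq2 called neither.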

How the results depend on the processing

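The count of genes called between genotypes was 1, and it was 3 with DESeq2 (Cxcl10, Rsad2, Ifit1), 2 with RLE scaling (Cxcl10, Rsad2), 3 with no filter on low counts (Cxcl10, Rsad2, Vpreb3), 5 with at least 2 UMIs of Mrc1 (Cxcl10, Rsad2, Ifit1, Cmpk2, Ccl8) and 0 with thinned cells, with C1q at least 20 UMIs, without cells with UMIs of immune or endothelial lists or most UMIs (5 of 6 mesenchyme-list members stayed in), in Xist cells only (no such cell in Din-KO replicate 2) and without cycling cells. Cxcl10 was not tested in the settings on immune or endothelial lists and on Xist. Leaving out a library gave 0 to 25 (0 without WT replicate 1, 12 without Din-KO replicate 1, 25 without Din-KO replicate 2). With the replicate block it was 11 (Cxcl10, Rsad2, Ccl12, Gbp2, Ifit3b, Ifit1, Isg20, Cmpk2, Oasl2, Oasl1, Ccl8). The numbers state no shared batch, and deviations of same-numbered libraries correlated at 0.0923 over 2088 genes in members and 0.514 over 6912 in Cx3cr1-positive cells. Among alternatives chosen after seeing the data, it was 4 with Malat1 at least 0.2% (Isg20, Ifit3b, Cldn10, AW112010) and 1 without the top interferon cell of each library (Ccl8; Cxcl10 was not tested there), with 0 under 20 UMIs of the mesenchyme list.

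Against Cx3cr1-positive macrophages the count was 24, and it was 2 with DESeq2, 45 with no filter, 0 with no library block (398 genes at an unadjusted p under 0.05 in edgeR), 6 against cells with Cx3cr1 and no Mrc1, 8 to 32 with a library left out (9 without WT replicate 1, 8 without Din-KO replicate 1), 3 with Malat1 at least 0.2% and 41 in the libraries of replicate number 1. Thinning gave 31, of which 7 were among the 24. Against cells with Cx3cr1 and no Mrc1, the log2 difference turned for Vim (-0.32), Stab1 (1.87), Maf (1.49) and Apoe (0.48). Under 20 UMIs of the mesenchyme list the count was 20, and Col1a1 (0.29) and Col1a2 (0.28) turned. The sign also turned for Ifi27l2a (-0.25) with Malat1 at least 0.2%, for Cxcl10 (-2.21), Rsad2 (-0.83) and Ifit1 (-0.52) without the top interferon cells, and for Tmem80 between -0.06 (without WT replicate 1) and 2.62.

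The difference of the genotype change gave 2 calls, 0 with DESeq2, thinned cells or C1q at least 20 UMIs, 7 with RLE scaling, 5 with at least 2 UMIs of Mrc1 (Malat1, Fmod, Amelx, Clec4f, Tmem80), 10 without cells of immune or endothelial lists or most UMIs, 4 with Malat1 at least 0.2% (Fmod, Clec4f, Col4a1, Angpt4), 9 without the top interferon cells, 4 under 20 UMIs of the mesenchyme list (Cstdc5, Amelx, S100a9, Cxcl10; Fmod was not tested there) and 0 to 6 with a library left out (0 without either WT library, 6 without either Din-KO library). There Cxcl10 turned to -1.48 without the top interferon cells, and with a library left out Col9a2 ranged from -5.08 to 10.79 and Tmem80 from -10.25 to 7.83. The difference in the share of members kept its direction in every alternative, from -3.96 to -0.17 percentage points. The alternatives with a library left out could not turn it, as both Din-KO shares lay below both WT shares. Of all kept cells, the shares were 0.641%, 0.513%, 0.656% and 0.157%, with Din-KO replicate 1 the highest. With Malat1 at least 0.2%, they were 3.96%, 1.15%, 2.84% and 1.39%. The genotypes were not separate in either. Of 716 refits of 48 named results, 491 kept direction and side of the threshold, 171 lost the call, 40 gained it and 14 turned. The cause of these changes was not tested.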

Other observations

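Among the 27 members with little Malat1, the median mitochondrial share was 6.15% of UMIs, against 4.81% in the 38 others, and the median number of detected genes was 1251, against 3069. Of the gate cells with neither Mrc1 nor Cx3cr1, 8 of 15 (53.3%) lay below the Malat1 cut as well. Classes outside the macrophage gate lay lower: 1.40% of collagen-rich cells, 1.69% of B cells and 6.19% of neutrophils were below it. These had under 10 C1q UMIs and were cut by gates of their own. The gates asked for 20 UMIs of Col1a1 and Col1a2 without Ptprc, 3 of Cd79a and Cd79b, or 20 of S100a8 and S100a9. The cell filters removed 172 barcodes that met the rest of the rule, with a median of 1417 UMIs and of 0.117% Malat1.

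In the 25 described members, against Cx3cr1-positive cells held to the same limits, 8 of 21 immediate early and stress response genes with a mean of at least 50 CPM were higher and 1 was lower in both libraries of replicate number 1. Of 23 lysosomal genes, which serve degradation of engulfed material, 7 were higher and 5 lower. Complement genes outside the rule were higher in 4 of 6. Of 45 interferon response genes, 30 were higher and 1 was lower, but in Din-KO replicate 1 single cells held much of the RNA, with 98.5% of the Rsad2 and 91.6% of the Ifit1 UMIs in 1 cell. These counts stand beside 28.9% higher and 23.9% lower over all genes at that level and were read after the values were seen, with no test. Against cells limited on Malat1 alone, 14 stress genes were higher and 2 lower, and 13 lysosomal genes were higher and 1 lower.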
